A study of Homo sapiens with 12 samples.

Results

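The genes described here encode RNA polymerase II, the Mediator complex, TFIID and the general initiation factors TFIIA, TFIIB, TFIIE and TFIIF. They were chosen by symbol from the deposited count table: POLR2A to POLR2M, every MED gene, every TAF gene, TBP and the 7 GTF2 genes of those factors. This gave 69 genes of 27505 rows, 19974 Ensembl genes and 7531 unannotated loci. Of the 69 members, 68 passed the filter on low counts. The exception was TAF1L, a retrocopy of TAF1, which is described with its values alone.

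RNA polymerase II makes all messenger RNA, and it starts at a promoter only inside a preinitiation complex. TFIID, built from the TATA-binding protein TBP and its associated factors (TAFs), marks the promoter. TFIIA and TFIIB join it, TFIIF escorts the polymerase, and TFIIE brings in TFIIH. Mediator bridges activators bound at enhancers to this complex through its tail, middle and head, while a detachable kinase module holds it away from the polymerase. CDK7, the kinase of TFIIH, phosphorylates the carboxy-terminal domain of POLR2A at the start of transcription. The genes measured here thus encode the machinery in which the drug target works.

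The comparison covers 4 groups of 3 cultures, 12 in all, and the design text calls the cultures biological samples. Y79 and WERI-Rb-1 (WERI below) are established human retinoblastoma cell lines, both with genotype WT in the labels, and the series title places them among MYCN-amplified retinoblastoma. Each line was held for 12 h in 50 nM THZ1, a covalent CDK7 inhibitor that also binds CDK12 and CDK13, or in 0.1% DMSO, the solvent. The groups were THZ1-treated Y79, THZ1-treated WERI, Y79 in DMSO and WERI in DMSO. Each line stands for 1 tumour. No library had an inactive control compound, and 1 dose and 1 time were sampled.

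Total counts per library ranged from 29677575 to 37433574. The summed level of 10 cone and retinoblastoma markers such as CRX, OTX2 and MYCN was 2343 to 2696 CPM in THZ1 Y79 and 3282 to 3372 CPM in DMSO Y79. It was 2459 to 2542 CPM in THZ1 WERI and 3224 to 3340 CPM in DMSO WERI. At an adjusted p under 0.05 (edgeR), 7 of the 10 were lower and 3 higher after THZ1 in Y79 (all genes 38.5% and 29.9%). In WERI 5 were lower and 5 higher (all genes 37.2% and 27.7%). CRX, OTX2 and MYCN were lower in both lines, and RCVRN, PDE6H and GNB3 were higher in both. CPM are counts-per-million after TMM scaling, which assumes most genes do not change. Markers of blood (3 genes) and of endothelium (2 genes) each summed to at most 4.26 CPM in any library. The 3 stroma markers summed to 2.89 to 4.03 CPM in THZ1 Y79 and 1.71 to 2.29 CPM in DMSO Y79, and to 51.3 to 53.7 CPM in THZ1 WERI and 23.3 to 26.0 CPM in DMSO WERI. The 4 markers of Muller glia and astrocytes stayed below 1.17 CPM in Y79 and summed to 104 to 114 CPM in THZ1 WERI and 82.5 to 91.5 CPM in DMSO WERI, nearly all of it SLC1A3. The 3 pigment epithelium markers summed to 14.2 to 45.5 CPM in THZ1 Y79 and 5.66 to 11.4 CPM in DMSO Y79, and to 7.66 to 40.7 CPM in THZ1 WERI and 4.40 to 12.2 CPM in DMSO WERI. RB1, the tumour suppressor lost in retinoblastoma, had 86.5 to 113 CPM in THZ1 Y79 and 48.7 to 50.8 CPM in DMSO Y79, and at most 0.175 CPM in any WERI library. None of the markers was at 0 in all 12 libraries, and the part of such differences in the results was not tested. RB1, the tumour suppressor whose loss starts most retinoblastomas, lay between 0 and 0.175 CPM in WERI, and in Y79 at 86.5 to 113 CPM with THZ1 and 48.7 to 50.8 CPM with DMSO. RNA from bulk cultures cannot tell fewer cells of a kind from less RNA per cell.

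The choice of scale bears on every direction given below. The 13 mRNAs encoded in mitochondria, made there by another polymerase, took 9.28 ± 0.729% of counts in THZ1 Y79 and 4.20 ± 0.262% in DMSO Y79 (SD, n = 3). They took 10.6 ± 0.726% in THZ1 WERI and 3.87 ± 0.111% in DMSO WERI. The 69 members together took 0.289 ± 0.00965% of counts in THZ1 Y79 and 0.432 ± 0.00347% in DMSO Y79. In WERI they took 0.315 ± 0.00471% with THZ1 and 0.409 ± 0.000706% with DMSO. With TMM the median log2 fold change of all tested Ensembl genes was -0.09 in Y79 and -0.11 in WERI. Scaled to total counts alone it was -0.65 and -0.56 in these lines, and scaled to the mitochondrial mRNAs it was -1.80 and -2.01. "Rose" and "fell" below are relative to the TMM scale unless another scale is named, and the amount of RNA per cell is not known from these files.

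A single library stood apart. The second THZ1 culture of Y79 gave 14.7% of its counts to ribosomal protein genes, against 10.6% and 10.9% in the other THZ1 cultures of Y79. Members with less than 2500 bases of exon were higher in it than in those 2 cultures, by a median of 0.34 on the log2 scale over 18 genes. Members with 7000 or more bases were lower in it, with a median difference of -0.24 over 16 genes. Without this library some calls near the threshold changed. In Y79, MED15 (higher) and MED7 (lower) lost their calls, MED13L was called higher at 0.20, and MED4, MED16 and TAF11 were called lower at -0.33, -0.28 and -0.26. In WERI, GTF2F2, MED12 and MED15 were called lower at -0.22, -0.28 and -0.17; in this fit all groups share an estimate of spread. The counts below use all 12 libraries.

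After THZ1 the genes of the transcription machinery did not move together, and the directions differed by complex. In Y79, 38 of the 68 tested members fell and 18 rose at an adjusted p under 0.05 (edgeR quasi-likelihood test, Benjamini-Hochberg over all tested features). Over all tested Ensembl genes, 38.5% fell and 29.9% rose in that line. In WERI 33 members fell and 19 rose, where 37.2% of all genes fell and 27.7% rose. The share of members that fell was 55.9% in Y79 and 48.5% in WERI, and the shares that rose, 26.5% and 27.9%, lay near the background. The median log2 change of the members was -0.52 in Y79 and -0.22 in WERI. These splits depend on the scale. With scaling to total counts, 53 members fell and 7 rose in Y79, where 56.1% of all genes fell and 14.6% rose. On that scale 45 fell and 13 rose in WERI, where 53.6% fell and 14.9% rose. With scaling to mitochondrial mRNAs, 66 fell and 0 rose in each line. The background was then 82% lower and 1.9% higher in Y79, and 89.7% lower and 0.747% higher in WERI. Without the second THZ1 culture of Y79, 40 fell and 18 rose in Y79 (all genes 39.7% and 29%). In that fit 36 fell and 19 rose in WERI (all genes 40.5% and 28.8%).

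**Figure D1:**
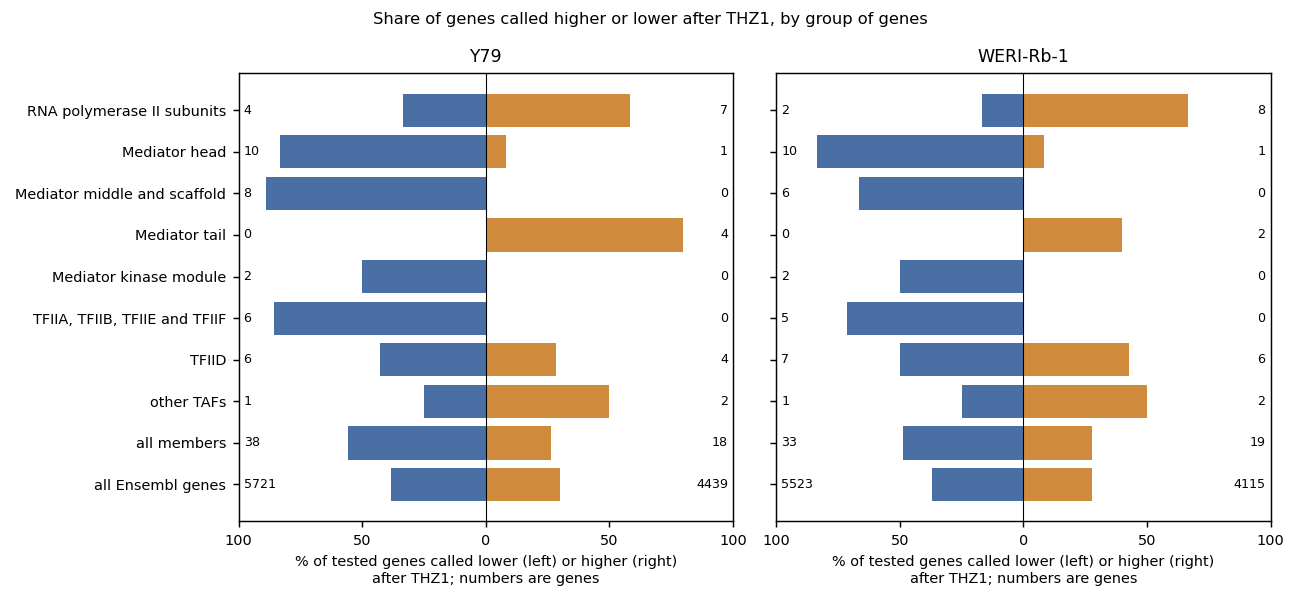
Percentage of tested genes called lower (bars to the left) or higher (bars to the right) after THZ1 on the TMM scale, by complex, for Y79 (left panel) and WERI-Rb-1 (right panel), with the number of genes at the edge of each bar row. Falls fill most of the Mediator head row, 10 of 12 genes in each line, while rises fill most of the row of polymerase subunits, 7 of 12 in Y79 and 8 of 12 in WERI; with scaling to mitochondrial mRNAs those rises become falls.

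Most members moved the same way in both lines. Of the 68 tested members, 30 (44.1%) fell in both lines, against 30.9% of all tested genes. Another 16 (23.5%) rose in both, against 21.8% of all genes. At 2-fold or more, 17 members (25%) fell in both lines, against 12.6% of all genes, and 5 (7.35%) rose in both, against 8.45%. Those 5 were MED24, POLR2E, POLR2G, POLR2L and TAF10. Another 14 members (20.6%) were called in 1 line, against 24.2% of all genes, and 7 (10.3%) in neither, against 21.3%. The last were MED4, MED12L, MED16, MED30, POLR2C, TAF1 and TAF7L, of which MED4 and MED16 were called lower in Y79 without its second THZ1 culture.

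Of the 12 subunits of the polymerase itself, 7 rose and 4 fell in Y79, and 8 rose and 2 fell in WERI. Of all genes, 29.9% rose and 38.5% fell in Y79, and 27.7% rose and 37.2% fell in WERI. With scaling to total counts, 4 subunits rose and 5 fell in Y79 (all genes 14.6% and 56.1%). On that scale 6 rose and 4 fell in WERI (all genes 14.9% and 53.6%). The median log2 change of the 12 subunits was 0.71 in Y79 and 0.87 in WERI on the TMM scale. With scaling to mitochondrial mRNAs it was -1.001 and -1.029 in these lines, and all 12 fell. POLR2A, the largest subunit with the catalytic site and the CDK7-phosphorylated tail, had 186, 112 and 196 CPM in THZ1 Y79, against 103, 92.1 and 105 CPM in DMSO Y79. Its gene lies at chr17:7484366-7514616 on the plus strand (GRCh38, GENCODE v29). In WERI it had 150, 130 and 119 CPM with THZ1, against 70.9, 74.0 and 72.2 CPM with DMSO. The THZ1 and DMSO cultures did not overlap in either line, although the second THZ1 culture of Y79 lay close to its controls. The log2 change was 0.72 ± 0.161 in Y79 (SE, adjusted p = 0.00152) and 0.88 ± 0.162 in WERI (adjusted p = 0.000349). The call rests on the scale: with total counts alone it was 0.17 in Y79 (adjusted p = 0.457) and 0.43 in WERI (adjusted p = 0.0692), and with mitochondrial scaling it fell by 0.99 and 1.02.

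POLR2B, the second large subunit and the partner of POLR2A in the active site, stayed close to its controls. It had 195, 213 and 202 CPM in THZ1 Y79, against 223, 229 and 224 CPM in DMSO Y79, a log2 change of -0.15 ± 0.0598 (adjusted p = 0.0472). In WERI the change was -0.01 ± 0.0599 (adjusted p = 0.855). POLR2C, which with POLR2J forms the platform on which the enzyme assembles, changed by -0.01 ± 0.0905 in Y79 and 0.08 ± 0.0896 in WERI and was called in neither. POLR2J rose, with 48.7, 62.0 and 50.6 CPM in THZ1 Y79 against 27.7, 26.8 and 30.0 CPM in DMSO Y79. In WERI it had 54.0, 43.8 and 50.7 CPM with THZ1, against 19.9, 23.1 and 23.0 CPM with DMSO. POLR2J has near-identical copies in the genome, so reads may be split among them.

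The stalk of the polymerase, a dimer of POLR2D and POLR2G, moved apart. POLR2G rose, with 108, 179 and 115 CPM in THZ1 Y79 against 58.6, 63.1 and 58.7 CPM in DMSO Y79. Its log2 change was 1.16 ± 0.146 in Y79 and 1.06 ± 0.146 in WERI. POLR2D fell to 34.3, 40.4 and 32.6 CPM in THZ1 Y79, against 111, 106 and 98.1 CPM in DMSO Y79. WERI cultures had 48.1, 46.5 and 46.7 CPM with THZ1, against 99.1, 93.3 and 91.0 CPM with DMSO. The log2 change of POLR2D was -1.55 ± 0.0836 in Y79 (adjusted p = 1.84e-09) and -1.005 ± 0.0819 in WERI (adjusted p = 1.26e-07). Every THZ1 culture held less POLR2D and more POLR2G than every DMSO culture of its line.

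The subunits shared by all nuclear RNA polymerases also divided. POLR2E, the largest of these changes, had 369, 511 and 373 CPM in THZ1 Y79, against 173, 159 and 182 CPM in DMSO Y79. Its levels in WERI were 288, 252 and 274 CPM with THZ1, against 114, 121 and 119 CPM with DMSO. This is a log2 change of 1.28 ± 0.112 in Y79 (adjusted p = 1.93e-07) and 1.20 ± 0.112 in WERI (adjusted p = 4.95e-07). POLR2L changed by 1.13 ± 0.186 in Y79 and 1.19 ± 0.187 in WERI, and POLR2F by 0.84 ± 0.199 and 0.86 ± 0.202 in the same lines. POLR2H fell in both, by 1.12 in Y79 and 0.87 in WERI on the log2 scale. POLR2K was the single member called in opposite directions, as were 1.74% of all tested genes. It had 21.0, 33.4 and 20.9 CPM in THZ1 Y79 against 36.7, 37.8 and 34.8 CPM in DMSO Y79, and 39.9, 41.9 and 43.4 CPM in THZ1 WERI against 25.1, 27.7 and 29.7 CPM in DMSO WERI.

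POLR2I, a small subunit that in yeast serves start site choice and proofreading, had 33.8, 66.3 and 33.9 CPM in THZ1 Y79 and 25.7, 28.6 and 28.0 CPM in DMSO Y79. The second THZ1 culture was the highest of the 3 for POLR2I, POLR2F, POLR2L, POLR2G and POLR2E. The 7042 bases of annotated exon of POLR2F join the exons of all its annotated transcripts. The length of the transcripts present in these cultures was not measured. Of the exon bases of POLR2I, 32.9% also belong to TBCB on the opposite strand, a more abundant gene that rose by 1.26 in Y79 and 1.02 in WERI, and the values of POLR2I are uncertain. POLR2L shares 22.5% of its exon bases with CD151 on the opposite strand, which fell by 0.65 in Y79 and 1.004 in WERI. Without the second THZ1 culture of Y79, the log2 change in Y79 was 0.27 for POLR2I, 0.43 for POLR2F and 0.80 for POLR2L. It was 0.86 for POLR2G and 1.08 for POLR2E, and each was still called higher. With that culture, the change of POLR2I was 0.70 ± 0.22. POLR2K fell by 0.83 without that culture and by 0.54 with it.

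Counts of a pair of genes from the same library can be divided without any scaling. The pairs were picked after their values were seen, so the ratios are given without a test. The ratio of POLR2E to POLR2D counts was 10.7, 12.6 and 11.4 in THZ1 Y79, against 1.56, 1.505 and 1.85 in DMSO Y79. In WERI it was 6.001, 5.41 and 5.88 with THZ1, against 1.15, 1.30 and 1.30 with DMSO. The ratio of POLR2L to POLR2H was 2.49 to 2.94 in THZ1 Y79 and 0.562 to 0.595 in DMSO Y79, and in WERI 2.20 to 2.27 with THZ1 and 0.434 to 0.627 with DMSO. A ratio shows unequal change and not which of the genes moved.

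POLR2M encodes GDOWN1, which binds the finished polymerase and keeps TFIIF off it. It had 35.3, 32.6 and 35.2 CPM in THZ1 Y79, against 85.6, 88.2 and 81.7 CPM in DMSO Y79. The WERI cultures had 56.1, 50.3 and 49.7 CPM with THZ1, against 57.5, 53.4 and 54.0 CPM with DMSO. The log2 change was -1.31 ± 0.0732 in Y79 (adjusted p = 2.54e-09) and -0.08 ± 0.0715 in WERI (adjusted p = 0.364). Part of its exon sequence, 21.1%, is shared with the read-through gene GCOM1 on the same strand.

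**Figure D2:**
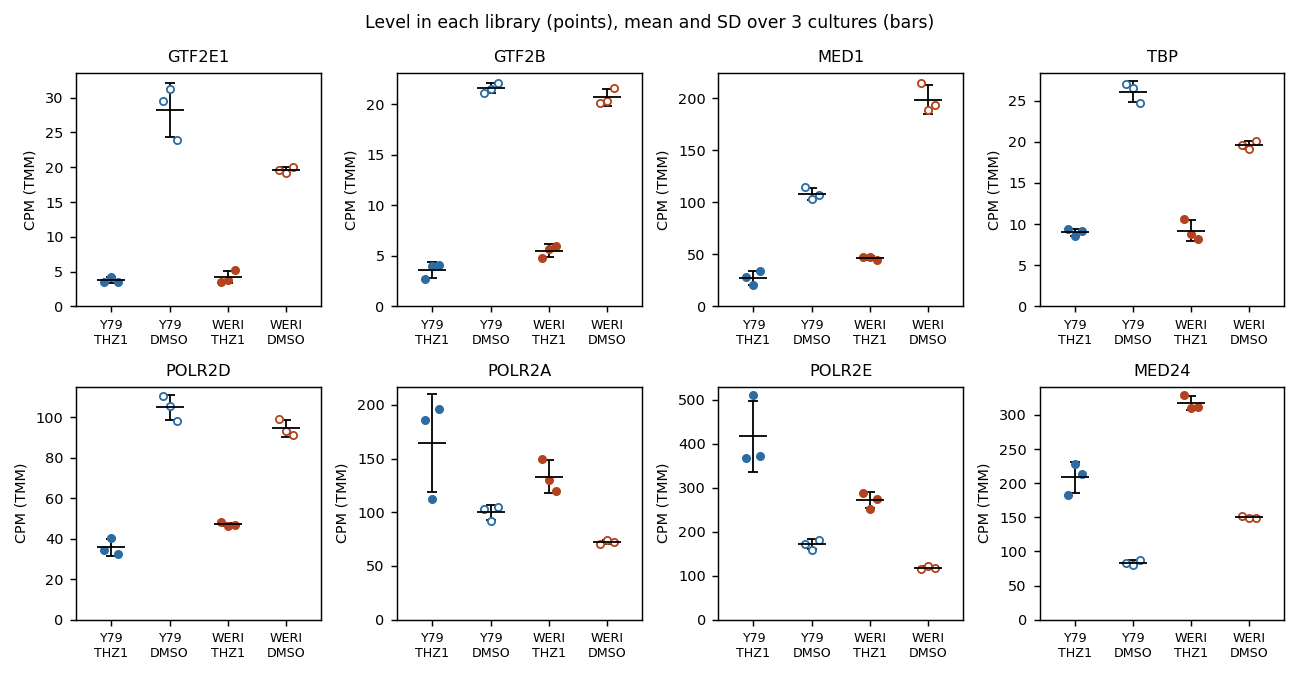
Level in CPM (TMM scale, axis from 0) of 8 members in each library: filled points are THZ1 cultures, open points DMSO cultures, and bars show the mean and SD over 3 cultures. The THZ1 points of GTF2E1, GTF2B, MED1, TBP and POLR2D lie below all DMSO points of their line and those of POLR2A, POLR2E and MED24 above them; with scaling to mitochondrial mRNAs the changes of POLR2A, POLR2E and MED24 turn negative.

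The largest called fall in each line was that of a general initiation factor. Of the 7 genes for TFIIA, TFIIB, TFIIE and TFIIF, 6 fell in Y79 and 5 in WERI, and 0 rose in either line. Of all genes, 38.5% fell and 29.9% rose in Y79, and 37.2% fell and 27.7% rose in WERI. The median log2 change of the 7 genes was -1.08 in Y79 and -0.84 in WERI. It was lower with total counts (-1.64 and -1.29) and with mitochondrial scaling (-2.80 and -2.74). GTF2E1 encodes the large subunit of TFIIE, the factor that recruits TFIIH and with it CDK7, and lies at chr3:120742637-120783069 on the plus strand. It fell to 3.57, 4.26 and 3.53 CPM in THZ1 Y79, against 29.5, 31.3 and 23.9 CPM in DMSO Y79. In WERI it fell to 3.57, 3.86 and 5.18 CPM with THZ1, against 19.6, 19.2 and 20.03 CPM with DMSO. No THZ1 culture came near a control. The fall was 7.47-fold in Y79 (log2 change -2.90 ± 0.156, adjusted p = 1.86e-09) and 4.66-fold in WERI (-2.22 ± 0.151, adjusted p = 2.39e-08). Its partner in TFIIE, GTF2E2, fell less, with log2 changes of -1.09 ± 0.108 in Y79 and -0.84 ± 0.111 in WERI.

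GTF2B encodes TFIIB, which positions the polymerase on the TBP-bound promoter. It had 2.74, 3.97 and 4.07 CPM in THZ1 Y79, against 21.1, 21.5 and 22.1 CPM in DMSO Y79. In WERI the levels were 4.79, 5.69 and 6.004 CPM with THZ1, against 20.1, 20.3 and 21.6 CPM with DMSO. The control levels of the lines were nearly equal, and the fall was 6.02-fold in Y79 (log2 change -2.59 ± 0.147, adjusted p = 2.96e-09) and 3.76-fold in WERI (-1.91 ± 0.14, adjusted p = 4.67e-08).

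TFIIA steadies TBP on DNA. Its large subunit gene GTF2A1 fell in both lines, to 33.2, 31.1 and 34.9 CPM in THZ1 Y79 against 72.2, 72.5 and 65.0 CPM in DMSO Y79, and to 20.5, 25.2 and 21.7 CPM in THZ1 WERI against 66.7, 56.7 and 62.0 CPM in DMSO WERI. Its small subunit gene GTF2A2 changed by -0.82 ± 0.131 in Y79 (adjusted p = 8.07e-05) and by 0.01 ± 0.131 in WERI (adjusted p = 0.948). The TFIIF genes moved little. The log2 change of GTF2F2 was -0.29 ± 0.0805 in Y79 (adjusted p = 0.00658) and -0.19 ± 0.0811 in WERI (adjusted p = 0.0623, and called lower at -0.22 without the second THZ1 culture of Y79). GTF2F1 was 0.04 ± 0.103 in Y79 (adjusted p = 0.773) and -0.31 ± 0.104 in WERI (adjusted p = 0.0181).

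Promoters are shown for 4 genes that fell or rose in both lines, to give the letters before the start of members that moved in opposite directions. The sequences below are the 250 bases before the RefSeq start of each gene on GRCh38.p14, read 5′ to 3′ along the gene's strand. GTF2E1 and GTF2B were at least 3.76-fold lower in each line, and MED24 of the Mediator tail and POLR2E were over 2-fold higher in each. These 4 were chosen after their values were seen. Capitals mark matches on either strand to short textbook motifs: the CCAAT box (CCAAT or ATTGG), the TATA box TATAAA, the GC box GGGCGG, the E-box CACGTG and the YY1 motif AAGATGGC (GCCATCTT on the other strand). The window of GTF2E1 is chr3:120742494-120742743 on the plus strand. The windows of GTF2B, MED24 and POLR2E are chr1:88891568-88891817, chr17:40054409-40054658 and chr19:1095376-1095625, these 3 on the minus strand. The GENCODE v29 span of GTF2E1 given above begins inside its window, so the last part of that window lies within the span. The GENCODE v29 span of POLR2E also reaches into its window.
GTF2E1: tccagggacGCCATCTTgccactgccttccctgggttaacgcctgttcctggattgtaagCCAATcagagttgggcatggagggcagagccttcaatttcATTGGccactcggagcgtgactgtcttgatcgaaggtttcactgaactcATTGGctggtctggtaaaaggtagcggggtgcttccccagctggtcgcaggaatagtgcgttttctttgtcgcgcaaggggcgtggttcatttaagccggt
GTF2B: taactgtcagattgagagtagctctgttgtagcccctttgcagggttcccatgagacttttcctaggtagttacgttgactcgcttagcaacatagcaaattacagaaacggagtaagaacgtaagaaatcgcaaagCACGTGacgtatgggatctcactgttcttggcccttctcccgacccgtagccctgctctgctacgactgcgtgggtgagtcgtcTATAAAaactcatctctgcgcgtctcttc
MED24: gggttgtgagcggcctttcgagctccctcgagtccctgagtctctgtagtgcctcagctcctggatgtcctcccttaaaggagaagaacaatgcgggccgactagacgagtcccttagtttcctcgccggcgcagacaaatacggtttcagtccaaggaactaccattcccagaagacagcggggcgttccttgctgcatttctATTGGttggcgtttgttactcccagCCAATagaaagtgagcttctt
POLR2E: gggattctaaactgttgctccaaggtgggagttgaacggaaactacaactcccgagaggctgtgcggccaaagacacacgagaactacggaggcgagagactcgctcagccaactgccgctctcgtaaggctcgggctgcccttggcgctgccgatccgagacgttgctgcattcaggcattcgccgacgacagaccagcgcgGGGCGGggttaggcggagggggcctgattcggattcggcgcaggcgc
GTF2E1 carried CCAAT boxes and the YY1 motif and no TATA box, GTF2B a TATA box and an E-box, MED24 CCAAT boxes in both orientations, and POLR2E a GC box.

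Of the 69 members, 52 had a promoter in the RefSeq table. CCAAT was found in 9 of the 21 promoters of genes that fell in both lines and in 1 of the 11 of genes that rose in both, MED24. Its share was 26.9% of the members and 33% of all 27305 promoters of that length. The ETS motif CCGGAAG was in 14 of 52 member promoters (26.9%), against 8.82% of all promoters, in 6 of the 21 that fell and in 1 of the 11 that rose. TATAAA was in 4 of 52 (7.69%), against 11.1% of all promoters. GGGCGG was in 29 of 52 (55.8%), against 42.3%, and CACGTG in 6 of 52 (11.5%), against 6.49%. A match describes letters in this window and no binding.

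Of the 14 TFIID genes, TBP and TAF1 to TAF13, 6 (42.9%) fell and 4 (28.6%) rose in Y79, where 38.5% of all genes fell and 29.9% rose. In WERI 7 (50%) fell and 6 (42.9%) rose, where 37.2% of all genes fell and 27.7% rose. The shares in Y79 lay near the background. With scaling to total counts, 13 fell and 1 rose in Y79 (all genes 56.1% and 14.6%), and 8 fell and 3 rose in WERI (all genes 53.6% and 14.9%). With mitochondrial scaling 13 fell in Y79 and 14 in WERI, and 0 rose in either line (all genes 82% lower and 1.9% higher in Y79, 89.7% and 0.747% in WERI). TBP, which bends the DNA at the promoter, fell to 9.38, 8.52 and 9.14 CPM in THZ1 Y79, against 27.0, 26.6 and 24.7 CPM in DMSO Y79. In WERI it fell to 10.6, 8.74 and 8.21 CPM with THZ1, against 19.6, 19.1 and 20.1 CPM with DMSO. The log2 change was -1.53 ± 0.109 in Y79 (adjusted p = 2.53e-08) and -1.09 ± 0.108 in WERI (adjusted p = 8.52e-07). The levels under THZ1 were close in the lines, while the control level was higher in Y79. TAF1, the largest subunit and the scaffold of TFIID, had 70.7, 56.6 and 75.4 CPM in THZ1 Y79, against 79.03, 78.0 and 74.9 CPM in DMSO Y79. It was called in neither line, at -0.19 ± 0.0995 in Y79 (adjusted p = 0.106) and 0.00 ± 0.0994 in WERI (adjusted p = 0.98), and it fell by 0.75 in Y79 when scaled to total counts.

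Several TAFs fold together as pairs resembling histones. TAF10 rose and its partner TAF8 fell in both lines. TAF10 had 19.98, 32.1 and 16.4 CPM in THZ1 Y79, against 9.32, 8.004 and 8.71 CPM in DMSO Y79, and 20.7, 21.3 and 26.6 CPM in THZ1 WERI, against 9.03, 8.83 and 9.55 CPM in DMSO WERI. TAF8 had 29.2, 24.5 and 28.7 CPM in THZ1 Y79, against 48.5, 47.3 and 49.2 CPM in DMSO Y79, and 17.5, 17.7 and 16.6 CPM in THZ1 WERI, against 39.7, 40.9 and 39.5 CPM in DMSO WERI. Of the exon bases of TAF10, 38.9% also belong to ILK on the opposite strand. ILK itself fell, with a log2 change of -0.83 in Y79 and -0.40 in WERI.

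TAF9 and its partner TAF6 both rose. TAF9 had 67.8, 73.6 and 68.5 CPM in THZ1 Y79, against 56.7, 58.9 and 57.5 CPM in DMSO Y79. WERI cultures held 50.5, 50.7 and 48.4 CPM with THZ1, against 18.4, 21.4 and 19.1 CPM with DMSO. THZ1 cultures of WERI thus came near the control level of Y79. TAF9 shares 20.6% of its exon bases with AK6 on the same strand, and AK6 moved the other way, with log2 changes of -2.505 in Y79 and -1.82 in WERI. The sources used here do not give how reads from the shared exons were assigned, and the values of TAF9 are uncertain. TAF6 changed by 0.29 ± 0.0751 in Y79 and 0.32 ± 0.0753 in WERI, and 24.7% of its exon bases also belong to AP4M1 on the opposite strand.

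Both members of the TAF4 and TAF12 pair fell. TAF12 had 6.31, 11.9 and 6.15 CPM in THZ1 Y79, against 17.4, 15.9 and 16.2 CPM in DMSO Y79. In WERI it fell to 3.29, 3.56 and 2.55 CPM with THZ1, against 11.3, 10.5 and 10.6 CPM with DMSO. TAF4 changed by -0.75 ± 0.093 in Y79 and -0.50 ± 0.092 in WERI. TAF11 and TAF13, which pair with each other, rose in WERI by 0.42 and 0.40 on the log2 scale, and in Y79 they were -0.16 ± 0.0757 (adjusted p = 0.0858, and called lower at -0.26 without the second THZ1 culture) and 0.12 ± 0.102 (adjusted p = 0.31). TAF5, whose repeats hold the core of TFIID together, fell by 1.66 in Y79 and 1.02 in WERI. TAF7, an inhibitor of the enzymatic activity of TAF1, rose in both, with changes of 0.36 ± 0.0842 in Y79 and 0.77 ± 0.0849 in WERI.

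**Figure D3:**
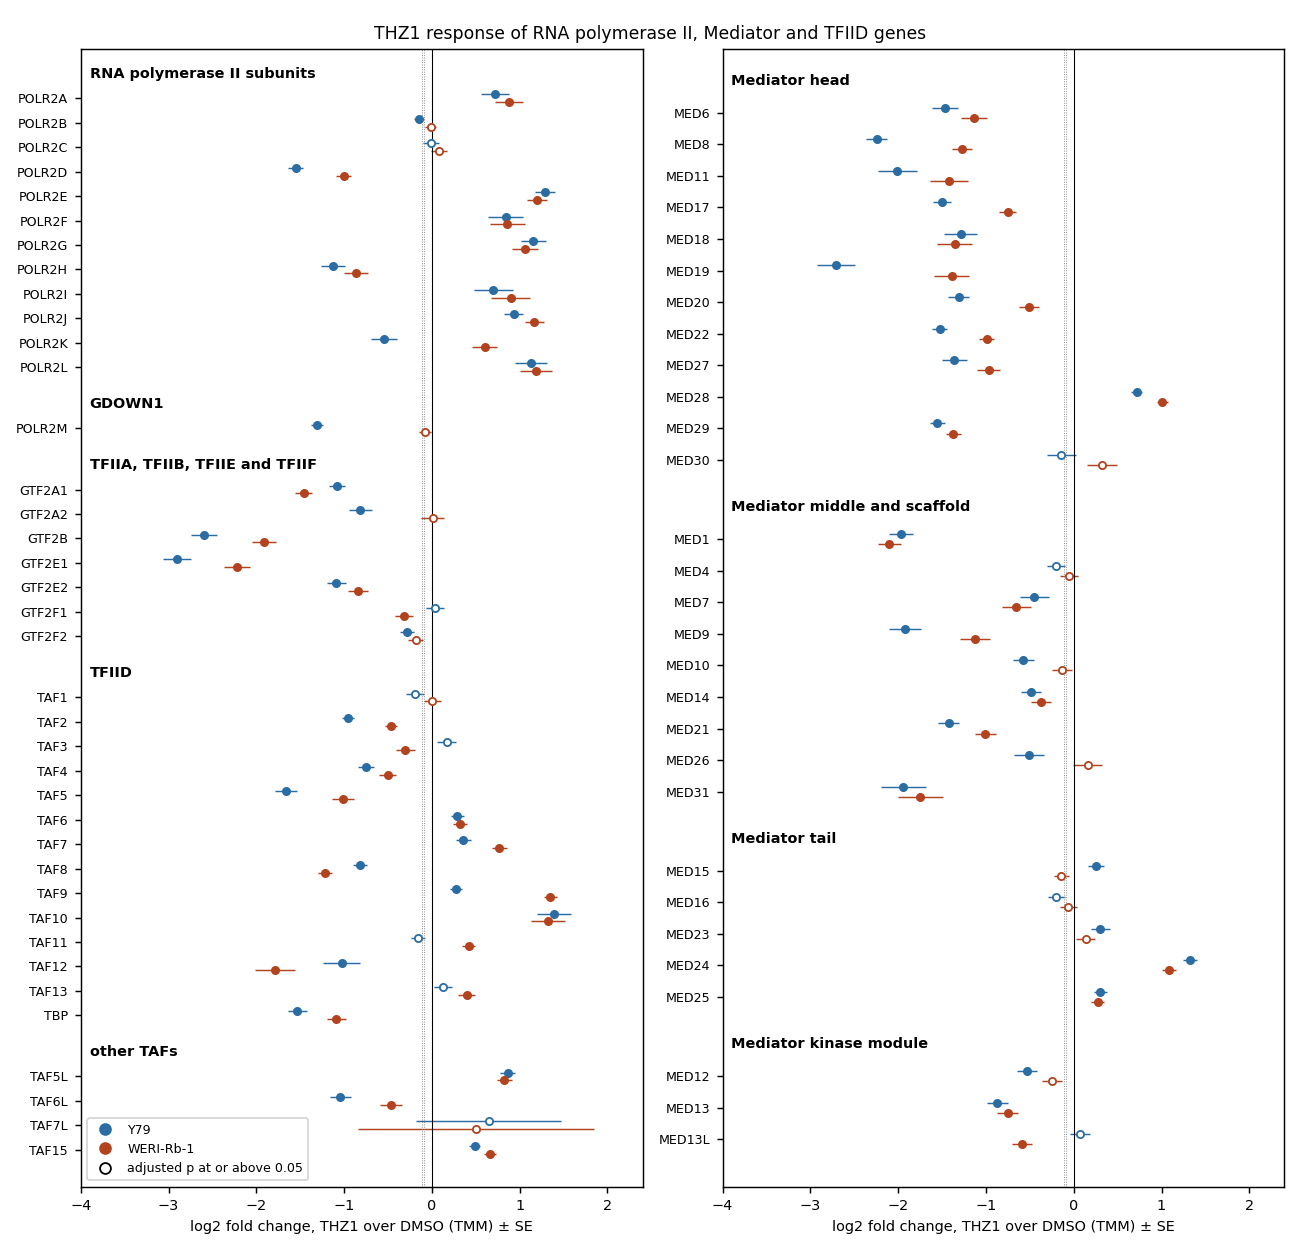
Log2 fold change, THZ1 over DMSO on the TMM scale, with its SE for 67 members, grouped by complex (Y79 above, WERI-Rb-1 below in each row; open points have an adjusted p at or above 0.05; dotted lines mark the medians of all genes, -0.09 and -0.11). MED12L, with almost no counts in Y79, is left out. GTF2E1 lies farthest left in both lines, and the points right of 0 move to the left of it with scaling to mitochondrial mRNAs.

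Of the 30 Mediator genes, 20 (66.7%) fell and 5 (16.7%) rose in Y79, where 38.5% of all genes fell and 29.9% rose. In WERI 18 (60%) fell and 3 (10%) rose, where 37.2% of all genes fell and 27.7% rose. With scaling to total counts, 26 fell and 1 rose in Y79 (all genes 56.1% and 14.6%). On that scale 24 fell and 2 rose in WERI (all genes 53.6% and 14.9%). On the TMM scale 10 of 12 genes of the head, which contacts the polymerase, fell and 1 rose in each line. The head genes had a median log2 change of -1.49 in Y79 and -1.06 in WERI. With scaling to total counts, 11 of them fell and 0 rose in Y79, and 10 fell and 1 rose in WERI. MED19 fell to 3.25, 2.28 and 1.45 CPM in THZ1 Y79, against 12.7, 16.2 and 17.2 CPM in DMSO Y79, the second largest called fall among the members in that line. In WERI it had 5.32, 5.28 and 5.69 CPM with THZ1, against 14.8, 14.4 and 13.6 CPM with DMSO. The fall was 6.54-fold in Y79 (log2 change -2.71 ± 0.22, adjusted p = 9.09e-08) and 2.62-fold in WERI (-1.39 ± 0.202, adjusted p = 3.58e-05).

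MED8, a structural subunit of the head, had 7.10, 7.70 and 7.98 CPM in THZ1 Y79, against 36.7, 34.9 and 36.5 CPM in DMSO Y79. WERI had 10.3, 14.1 and 14.6 CPM with THZ1, against 31.3, 31.8 and 31.0 CPM with DMSO. MED11, another small head subunit, had 1.12, 1.79 and 1.70 CPM in THZ1 Y79 and 6.77, 5.70 and 6.04 CPM in DMSO Y79. Of its exon bases, 31.1% overlap AC091153.4 on the other strand, which was not among the genes counted. MED17, around which the head is built, changed by -1.50 ± 0.102 in Y79 and -0.75 ± 0.101 in WERI. The head gene that rose was MED28, with 211, 199 and 211 CPM in THZ1 Y79 against 132, 129 and 117 CPM in DMSO Y79, and 190, 190 and 199 CPM in THZ1 WERI against 93.2, 94.96 and 99.3 CPM in DMSO WERI. Of its exon bases, 32.1% overlap FAM184B on the other strand, itself at 0.874 to 5.10 CPM on average.

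In the middle of Mediator and its backbone MED14, 8 of 9 genes fell in Y79 and 6 of 9 in WERI, and 0 rose. Of all genes, 38.5% fell and 29.9% rose in Y79, and 37.2% fell and 27.7% rose in WERI. With scaling to total counts, 9 of 9 middle genes fell in Y79 and 8 in WERI (all genes 56.1% and 53.6%). MED1, the subunit bound by nuclear receptors, is encoded at chr17:39404285-39451286 on the minus strand. It fell to 28.4, 20.4 and 33.9 CPM in THZ1 Y79, against 115, 103 and 107 CPM in DMSO Y79. In WERI it fell to 47.4, 47.1 and 44.3 CPM with THZ1, against 214, 188 and 193 CPM with DMSO. This is a 3.92-fold fall in Y79 (log2 change -1.97 ± 0.134, adjusted p = 1.56e-08) and a 4.29-fold fall in WERI (-2.10 ± 0.132, adjusted p = 1.17e-08). MED31 fell too, with log2 changes of -1.94 ± 0.256 in Y79 and -1.75 ± 0.256 in WERI, at 1.07 to 2.18 CPM in THZ1 cultures. A share of 58.3% of its exon bases overlaps TXNDC17 on the other strand, a gene whose change was -0.49 in Y79 and 0.37 in WERI.

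MED26, the subunit through which Mediator contacts elongation factors, had 9.45, 6.25 and 9.27 CPM in THZ1 Y79 and 10.0, 14.4 and 11.3 CPM in DMSO Y79. Its log2 change in Y79 was -0.51 ± 0.168 (adjusted p = 0.0163), a call lost without the second DMSO culture of Y79, where it was -0.36. In WERI it was 0.16 ± 0.162 (adjusted p = 0.427). MED26 shares 13.2% of its exon bases with AC008764.4 on the same strand. That gene had on average 1.34 CPM in THZ1 Y79 and 0.083 CPM in DMSO Y79, and 1.82 and 0.191 CPM in WERI. MED4, which was 2.46-fold higher in Y79 controls than in WERI controls, was called in neither line with all libraries, and lower in Y79 without its second THZ1 culture (-0.33, adjusted p = 0.0043). MED14 fell by 0.48 in Y79 and 0.37 in WERI.

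In the tail, which receives activators, 4 of 5 genes rose in Y79 and 2 of 5 in WERI, and 0 fell in either. Of all genes, 29.9% rose and 38.5% fell in Y79, and 27.7% rose and 37.2% fell in WERI. With scaling to total counts, 3 of the 5 tail genes fell and 1 rose in each line. The shares of all genes were then 56.1% lower and 14.6% higher in Y79, and 53.6% and 14.9% in WERI. Without the second THZ1 culture of Y79, MED16 was called lower in Y79 (-0.28, adjusted p = 0.0106) and MED15 lower in WERI (-0.17, adjusted p = 0.0335) in the edgeR fit. On the TMM scale the 5 genes had a median log2 change of 0.30 in Y79 and 0.14 in WERI, which was -0.26 and -0.31 with scaling to total counts and -1.41 and -1.75 with mitochondrial scaling. MED24 had the largest rise. It had 183, 229 and 213 CPM in THZ1 Y79, against 82.8, 80.1 and 87.5 CPM in DMSO Y79. In WERI it had 329, 311 and 312 CPM with THZ1, against 152, 149 and 148 CPM with DMSO. The log2 change was 1.32 ± 0.0792 in Y79 (adjusted p = 4.77e-09) and 1.08 ± 0.0784 in WERI (adjusted p = 4.16e-08). MED25 rose by 0.30 in Y79 and 0.27 in WERI. MED23 rose in Y79 (0.30 ± 0.107) and was 0.14 ± 0.106 in WERI. MED15 was 0.25 ± 0.0875 in Y79 and lost its call without the second THZ1 culture (0.14, adjusted p = 0.113), and MED16 was -0.20 in Y79 (adjusted p = 0.0776) with all libraries.

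The count ratio of MED24 to MED1 was 6.46, 11.2 and 6.29 in THZ1 Y79, against 0.722, 0.776 and 0.819 in DMSO Y79. In WERI it was 6.94, 6.60 and 7.03 with THZ1, against 0.711, 0.792 and 0.767 with DMSO. The control cultures of the lines agreed closely, although both genes were higher in WERI. MED28 to MED8, both of the head, was 25.9 to 29.8 in THZ1 Y79, 3.22 to 3.70 in DMSO Y79, 13.5 to 18.5 in THZ1 WERI and 2.98 to 3.21 in DMSO WERI.

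In the kinase module, MED12 is the subunit that activates CDK8 and MED13 links the module to Mediator. MED12 had 43.3, 32.3 and 46.7 CPM in THZ1 Y79, against 59.4, 53.5 and 63.8 CPM in DMSO Y79. In WERI it had 59.3, 57.4 and 54.1 CPM with THZ1, against 63.9, 70.0 and 68.8 CPM with DMSO. The log2 change was -0.53 ± 0.115 in Y79 (adjusted p = 0.00104) and -0.25 ± 0.113 in WERI (adjusted p = 0.075). In WERI it passed the threshold when any 1 THZ1 culture of Y79 was left out, at -0.28 each time. MED13 fell in both lines, by 0.87 in Y79 and 0.75 in WERI. The partners of the module outside the member list are CDK8, its paralog CDK19 and cyclin C (CCNC). All 3 fell in Y79, by 0.22, 0.50 and 0.45 on the log2 scale, and CDK8 and CDK19 fell in WERI, by 0.45 and 0.28. Of the 4 module genes among the members, 2 fell and 0 rose in each line. MED13L changed by 0.07 in Y79, not called with all libraries, and by -0.59 in WERI. Of all genes, 38.5% fell and 29.9% rose in Y79, and 37.2% fell and 27.7% rose in WERI. Nothing particular to so few genes is read from these counts.

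The remaining TAFs belong to other complexes or tissues. TAF5L and TAF6L, subunits of the coactivator SAGA, moved in opposite directions. TAF5L had 103, 96.1 and 106 CPM in THZ1 Y79, against 58.2, 53.0 and 56.2 CPM in DMSO Y79, and 31.7, 33.8 and 36.7 CPM in THZ1 WERI, against 21.5, 18.6 and 17.6 CPM in DMSO WERI. TAF6L fell by 1.04 in Y79 and 0.47 in WERI. TAF15, an RNA-binding protein of the FET family, rose by 0.49 in Y79 and 0.66 in WERI on the log2 scale. TAF7L, a germ cell variant, had 34, 14 and 22 counts in THZ1 Y79 and 17, 26 and 31 in DMSO Y79, and 0, 5 and 0 in both THZ1 WERI and DMSO WERI. TAF1L had at most 5 counts in any library, and its near identity with TAF1 makes even these uncertain.

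Other genes near this machinery were read from lists given as counts. Among variants of TBP and the TAFs, TAF9B rose in both lines (1.12 ± 0.0702 in Y79 and 1.59 ± 0.0701 in WERI), like its paralog TAF9. TBPL1, a TBP relative used at promoters without a TATA box, fell like TBP, with -2.27 ± 0.169 in Y79 and -1.98 ± 0.169 in WERI. TAF4B rose in WERI (0.40 ± 0.127) and was 0.27 ± 0.116 in Y79. TBPL2 and GTF2A1L were too low to test. Of 4 regulators of TBP, 3 rose in each line, where 29.9% of all genes rose in Y79 and 27.7% in WERI. DRAP1 and DR1, which form the NC2 repressor of TBP, changed by 1.62 ± 0.2 and 0.49 ± 0.0641 in Y79 and by 1.61 ± 0.199 and 0.63 ± 0.0638 in WERI. All of these are on the TMM scale.

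The difference of the THZ1 changes between the lines was tested as an interaction of line and drug. Of 68 members, 19 had a lower change in Y79 than in WERI and 4 a higher one, where 13.2% of all tested genes were lower and 8.74% higher. Among those 19, MED28, TAF7 and TAF9 rose in both lines and less in Y79, and TAF11 rose in WERI and was not called in Y79. With scaling to total counts it was 22 lower and 0 higher (all genes 18.1% and 4.98%), and with mitochondrial scaling 6 lower and 5 higher (all genes 4.8% and 12%). Leaving out 1 library at a time gave 12 to 26 lower and 1 to 6 higher. Without the second THZ1 culture of Y79 it was 26 and 6, where 20% of all genes were lower and 14.3% higher. The added members were MED6, MED10, MED30, POLR2F, POLR2H, POLR2I and POLR2J (lower) and GTF2A1 and MED1 (higher). Without the second DMSO culture of Y79 it was 12 lower and 1 higher (all genes 10.1% and 5.98%).

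**Figure D4:**
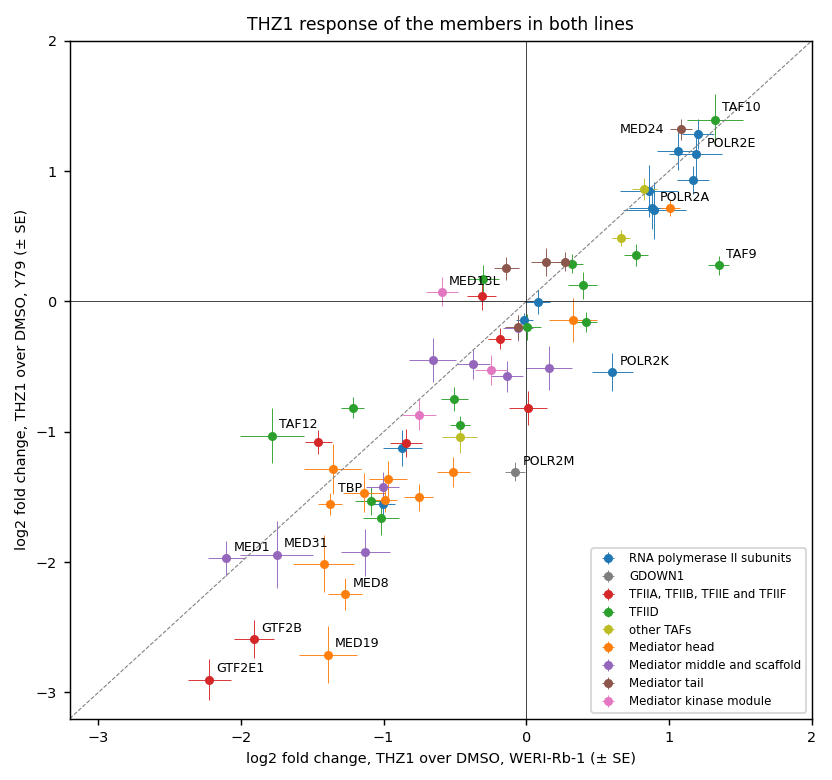
Log2 fold change, THZ1 over DMSO on the TMM scale, in Y79 (vertical axis) against WERI-Rb-1 (horizontal axis) with SE in both directions for 66 members, coloured by complex; the dashed line marks equal change, and the low-count genes MED12L and TAF7L are left out. GTF2E1, GTF2B and MED8 lie below the line, MED19, POLR2M and POLR2K far below it, TAF9 far to its right and MED13L above it.

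Of the 12 head genes of Mediator, 6 had a lower change in Y79 on the TMM scale, as did 13.2% of all tested genes. The 6 were MED8, MED17, MED19, MED20, MED22 and MED28. With scaling to total counts 6 head genes had a lower change in Y79 (all genes 18.1%), and with mitochondrial scaling 2 (all genes 4.8%). For MED19 the difference of the log2 changes, Y79 minus WERI, was -1.32 ± 0.293 (adjusted p = 0.00706), and for MED8 it was -0.98 ± 0.166 (adjusted p = 0.00126). POLR2M had -1.23 ± 0.102 (adjusted p = 1.27e-05), POLR2K -1.14 ± 0.207 (adjusted p = 0.00192) and TAF9 -1.07 ± 0.102 (adjusted p = 3.15e-05). Of the initiation factors, GTF2E1 and GTF2B each had a difference of -0.68, and GTF2A2 had -0.83.

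The 4 members with a higher change in Y79 were MED13L, TAF3, TAF8 and MED15. MED13L, the paralog of MED13, had 121, 86.2 and 129 CPM in THZ1 Y79, against 111, 103 and 106 CPM in DMSO Y79, and was called higher in Y79 (0.20, adjusted p = 0.0043) without the second THZ1 culture. In WERI it fell to 48.5, 52.8 and 50.3 CPM with THZ1, against 77.7, 74.6 and 76.2 CPM with DMSO. Its difference was 0.67 ± 0.16 (adjusted p = 0.0106). TAF8 (0.40 ± 0.113), MED15 (0.39 ± 0.124) and TAF3 (0.47 ± 0.155) had adjusted p of 0.0247, 0.04 and 0.05, the last just under the threshold before rounding. TAF3 was lost in 10 of the 12 fits that left out 1 library, MED15 in 8 and TAF8 in 6.

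In DMSO the members called between the lines were mostly higher in Y79 on the TMM scale. Not called were 26 of the 68 members and 5219 of all 14865 tested genes. Y79 had the higher level in 36 and the lower in 6 of 68, where 32.3% of all tested genes were higher and 32.6% lower. The median log2 difference of the members, Y79 over WERI, was 0.36, against 0.00 for all genes. With scaling to total counts it was 26 higher and 11 lower (all genes 24.5% and 38.6%), and with mitochondrial scaling 18 and 16 (all genes 18.2% and 42.5%). On the TMM scale 9 of 14 TFIID genes, 5 of 7 initiation factor genes and 8 of 12 polymerase subunits were higher in Y79. On that scale 0 of the TFIID or initiation factor genes were lower. With scaling to total counts 5, 5 and 3 genes of these sets were higher, and 1 TFIID gene was lower. With mitochondrial scaling it was 4, 4 and 1, and 2 TFIID genes were lower. TAF9 had 56.7, 58.9 and 57.5 CPM in DMSO Y79, against 18.4, 21.4 and 19.1 CPM in DMSO WERI, a log2 difference of 1.56 ± 0.0739 (adjusted p = 4.78e-10). TAF5L differed by 1.54 ± 0.0885 and MED4 by 1.30 ± 0.103.

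Of the 30 Mediator genes, 9 (30%) were higher and 5 (16.7%) lower in Y79 in DMSO on the TMM scale. Of all tested genes, 32.3% were higher and 32.6% lower. With scaling to total counts 8 were higher and 9 lower (all genes 24.5% and 38.6%). With mitochondrial scaling it was 6 and 13 (all genes 18.2% and 42.5%). Of the 6 members lower in Y79 on the TMM scale, 5 were of Mediator: MED1, MED10, MED12L, MED14 and MED24. MED1 differed by -0.88 ± 0.126, MED24 by -0.84 ± 0.0784 and MED10 by -0.78 ± 0.115. MED12L, a paralog of MED12, had 0, 0 and 3 counts in DMSO Y79, against 33, 27 and 28 in DMSO WERI. Adjusted for library size, the ratio of these sums was 0.0358, with a 95% counting interval of 0.00725 to 0.108. With THZ1 it had 0, 0 and 0 counts in Y79, which leaves room for up to 3 counts per library, and 54, 26 and 38 in WERI. TAF7L was the reverse, with counts in every Y79 library and in 1 of 3 WERI libraries of each group.

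Levels can be compared between genes only per length, so CPM were divided by the kilobases of annotated exon. In DMSO Y79 the highest level was that of TAF7 at 46.9 ± 0.786 CPM per kb, followed by GTF2F1 (39.6 ± 2.101) and POLR2B (38.2 ± 0.502). In DMSO WERI it was POLR2G at 32.1 ± 1.69 CPM per kb, followed by POLR2B (27.9 ± 0.601), TAF7 (27.3 ± 2.02) and MED1 (27.1 ± 1.88), which lie within their spread of each other after the first. With THZ1 the top places went to POLR2E (85.8 ± 16.6) and POLR2G (69.8 ± 20.4) in Y79 and to POLR2G (67.1 ± 3.43) and POLR2E (55.8 ± 3.80) in WERI. POLR2A stood at 19.7 ± 5.46 CPM per kb in THZ1 Y79 and 12.0 ± 0.829 in DMSO Y79, rank 13 and rank 27 of the members. TBP stood at 3.89 ± 0.19 CPM per kb in THZ1 Y79 and 11.3 ± 0.544 in DMSO Y79, rank 45 and rank 30.

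The response of the members varied little with length. Across the 68 tested members, Spearman's correlation of the log2 change with exon length was 0.06 in Y79 and 0.02 in WERI, and with the length of the gene -0.03 in Y79 and -0.10 in WERI. Over all 14865 Ensembl genes the values were -0.05, -0.11, -0.10 and -0.15 in the same order. Genes are not independent replicates, and these values are descriptions. The 30 members that fell in both lines had a median gene length of 21354 bases, the 16 that rose 16124 bases, and all tested genes 32200 bases.

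Across the 12 libraries, the members most like GTF2E1, the largest called fall, were MED11 (Pearson's r of log2 CPM 0.98), TBP (0.97) and POLR2D (0.97). The members most like POLR2A were MED28 (0.90), TAF15 (0.89) and TAF6 (0.86). The libraries form 4 groups, and these values carry no test.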

How the data were processed

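RNA was measured by sequencing in 12 cultures, 3 in each of 4 groups set by line and treatment. Per the labels, libraries came from a NEBNext Ultra kit that loses strand, so reads of genes that overlap on opposite strands cannot be told apart. The values deposited are whole-number counts for each gene, and no normalization by the authors shows in its values. Per the submitters' processing notes, Cufflinks and the build GRCh38 were used. The aligner and counting settings are among what was not given in the sources used here.

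Counts were analysed with edgeR 4.0.16 in R 4.3.3: filterByExpr, TMM scaling, glmQLFit with robust spread and glmQLFTest, 1 mean per group over all 12 libraries, two-sided, with Benjamini-Hochberg adjustment over all 18844 tested features of a contrast. The contrasts were THZ1 against DMSO in Y79 and in WERI-Rb-1, the difference of these changes, and Y79 against WERI-Rb-1 in DMSO. Genes with an adjusted p under 0.05 were called, and background shares cover the 14865 tested Ensembl genes. The SE of a log2 fold change is its absolute value over the square root of F. Depth was 29677575 to 37433574 counts, and a count of 0 leaves room for up to 3 counts in a library, covering counting error only. The fit was tested on simulated data.

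Members, gene lists and tests were chosen with earlier results of these data known. Named by rule were POLR2A, TBP, GTF2B, MED1, MED12, MED26 and TAF1. To these came, for each THZ1 comparison, the 6 largest rises and falls among called members without overlap between groups, and for the other contrasts the 4 largest each way. Further members are named as examples of their complex, as partners of a named subunit, or in counts of 5 or fewer, and were chosen after their values were seen. All 69 members matched GENCODE v29, which gave positions, exon lengths and overlaps. Promoters came from RefSeq GRCh38.p14. Same-numbered THZ1 and DMSO cultures did not deviate together, with correlations of -0.06, -0.08 and -0.09 in Y79 and -0.22, -0.05 and -0.08 in WERI-Rb-1, so replicate numbers were not used as pairs. Alternatives were RLE size factors, total counts alone, mitochondrial scaling, no filter, DESeq2 1.42.0, Ensembl genes alone, the compared groups alone, a replicate block and leaving out each library. Tables were built with pandas 2.3.3 and figures with matplotlib 3.10.9 in Python 3.11.15.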

Additional observations from a re-analysis of the deposited data

Results flagged for a closer look

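For 23 members the THZ1 change differed between the lines in the test of that difference (edgeR, adjusted p under 0.05), and each value here is the log2 change in Y79 minus that in WERI-Rb-1. In Mediator the differences were -1.32 for MED19, -0.98 for MED8, -0.80 for MED20 and for MED9, -0.75 for MED17, -0.53 for MED22 and -0.29 for MED28. On the other side stood MED13L at 0.67 and MED15 at 0.39. MED28 rose in both lines, and less in Y79.

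Among the polymerase genes they were -1.23 for POLR2M, -1.14 for POLR2K and -0.55 for POLR2D. The initiation factors had -0.83 for GTF2A2 and -0.68 for GTF2B and for GTF2E1.

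TAF9 had -1.07, TAF5 -0.65, TAF11 -0.58, TAF6L -0.57, TAF2 -0.49 and TAF7 -0.41. TAF3 had 0.47 and TAF8 0.40. TAF2, TAF5 and TAF6L fell in both lines, and TAF7 and TAF9 rose in both. Scaling to mitochondrial mRNAs left 6 lower and 5 higher differences, and the part of the scale in these differences was not tested further.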

How the results depend on the processing

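Scaling had the largest effect. With scaling to mitochondrial mRNAs, 66 members fell and 0 rose in each line, 6 had a lower change in Y79 than in WERI-Rb-1, and Y79 in DMSO was higher than WERI-Rb-1 in 18 and lower in 16. On that scale the log2 changes in Y79 became -0.31 for TAF10, -0.39 for MED24, -0.42 for POLR2E, -0.56 for POLR2G, -0.58 for POLR2L, -0.78 for POLR2J and -0.99 for POLR2A. In WERI-Rb-1 they became -0.55 for TAF9, -0.58 for TAF10, -0.70 for POLR2E, -0.72 for POLR2L, -0.74 for POLR2J, -0.82 for MED24, -1.02 for POLR2A, -1.74 for MED26 and -1.89 for TAF1. With total counts alone, 7 members rose in Y79, 0 had a higher change in Y79, 11 were lower in Y79 in DMSO, and TAF1 in WERI-Rb-1 turned to -0.44. Without the low-count filter 2 members had a higher change in Y79 (all genes 6.45%). With only the compared groups 12 were lower in Y79 in DMSO (all genes 39%). With a replicate block 1 had a higher and 14 a lower change in Y79 (all genes 5.81% and 9.69%). The block moved the counts of the THZ1 comparisons by less than 1.5 times. No THZ1 culture correlated best with the DMSO culture of its own number. The causes were not tested.

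Leaving out each library gave 36 to 40 falls and 17 to 18 rises in Y79, 32 to 36 falls and 19 to 20 rises in WERI-Rb-1, 12 to 26 lower and 1 to 6 higher differences of the change, and 5 to 9 lower and 30 to 39 higher members in Y79 in DMSO. The calls of 44 of 50 named values held in all 12 of these fits. The exceptions were TAF3, TAF8 and MED15 in the difference of the lines, MED26 and TAF1 in Y79, and MED12 in WERI-Rb-1.

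Depth limits TAF1L, TAF7L and MED12L, whose counts were too low in 1 line or both for a fold change. Exons shared with another counted gene, at 20% or more of the member's exon bases, limit MED28, MED31, POLR2I, POLR2L, POLR2M, TAF6, TAF9 and TAF10. MED12L and MED26 also reach this share, with partners that had almost no counts, and MED26 has a further partner at 13.2%. Overlaps with genes that were not counted reach 31.1% for MED11, 61.9% for POLR2I and 25.8% for TAF1L. With 3 cultures per group, 1 dose and 1 time, the values describe these cultures, and changes in RNA per cell cannot be told apart from changes in share.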

Other observations

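Complexes next to the polymerase were read from lists named beside the members, on the TMM scale and with the same fit. Over all tested genes 38.5% fell and 29.9% rose in Y79, and 37.2% fell and 27.7% rose in WERI-Rb-1, and nothing particular to these short lists is read from their counts. SAGA, a coactivator that shares TAFs with TFIID, had 8 falls and 5 rises among 15 rows in Y79, and 8 falls and 4 rises in WERI-Rb-1, rises near the share of all genes, with 1 of its 14 genes having 2 identifiers. Its subunit TADA1 changed by -2.07 ± 0.135 in Y79 and -1.93 ± 0.143 in WERI-Rb-1 (SE, n = 3 cultures per group). The acetyltransferase genes KAT2A and KAT2B rose in both lines, with 0.86 ± 0.0713 and 0.80 ± 0.0792 in Y79 and 0.75 ± 0.071 and 1.03 ± 0.0787 in WERI-Rb-1. The deubiquitinase gene USP22 fell by 0.74 in Y79 and 0.65 in WERI-Rb-1.

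Of 8 factors that assemble and import the polymerase, 4 fell and 2 rose in Y79, and 4 fell and 3 rose in WERI-Rb-1. Of all tested genes, 38.5% fell and 29.9% rose in Y79, and 37.2% fell and 27.7% rose in WERI-Rb-1. RPAP2, which also removes phosphate from the POLR2A tail, changed by -0.60 ± 0.126 in Y79 and -1.49 ± 0.129 in WERI-Rb-1. GPN3 changed by -1.66 ± 0.187 in Y79 and -0.55 ± 0.182 in WERI-Rb-1. Of 8 phosphatases and binders of that tail, 4 fell and 3 rose in Y79, and 5 fell and 1 rose in WERI-Rb-1, against the same shares of all genes. CTDP1, a phosphatase that recycles the polymerase, fell by 1.97 in Y79 and 2.02 in WERI-Rb-1 on the log2 scale. CTDSPL, a small phosphatase, changed by 1.39 ± 0.0857 in Y79 and 0.18 ± 0.0853 in WERI-Rb-1. The change in Y79 minus that in WERI-Rb-1 was 1.21 ± 0.12 for CTDSPL (adjusted p = 3.7e-05), 0.89 ± 0.179 for RPAP2 (adjusted p = 0.00387) and -1.11 ± 0.258 for GPN3 (adjusted p = 0.00917) in the edgeR test of that difference, adjusted over all features. These 3 genes were chosen after their values were seen.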
